A study of Mus musculus with 4 samples.

Results

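The 10 genes described here, Ctla4, Pdcd1, Lag3, Tigit, Havcr2, Cd160, Btla, Cd200, Cd96 and Cd244, encode surface proteins of the coinhibitory system of T cells. They were chosen by symbol, and all 10 were found among the 24346 gene rows of the deposited expression table. RNA was sequenced from splenic regulatory T (Treg) cells, a Foxp3-expressing class of CD4+ T cells that holds other immune cells in check, of male mice aged 16 weeks. All mice carried Foxp3-Cre, a Cre recombinase expressed where Foxp3 is, and the sorted cells were Foxp3-Cre-GFP+, Thy1.2+ and CD4+. The 2 wild-type (WT) libraries came from mice with unmodified Tcf1 and Lef1, and the 2 double-deficient (dKO) libraries from mice double floxed for Tcf1 and Lef1, given as Tcf1-/-Lef1-/- in the labels. Tcf1, encoded by Tcf7, and Lef1 are related DNA-binding factors of T cells. The Cre is driven by Foxp3, so cells that never expressed Foxp3 were not its target. Library names (WT_0, WT_1, dKO_0, dKO_1) follow the table's columns. The labels do not say whether 2 libraries of a group are 2 animals, so each p-value reflects library-to-library spread that could be technical.

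Coinhibitory receptors sit beside the T cell receptor and CD28 and dampen signalling when they meet their ligands on another cell. Many carry tyrosine motifs in the tail that recruit the phosphatases SHP-1 and SHP-2, while others compete with a costimulatory receptor for a shared ligand. In Treg cells CTLA-4 is part of the suppressive machinery itself, since it captures and removes CD80 and CD86 from antigen-presenting cells, and TIGIT, LAG-3 and PD-1 mark activated or effector subsets. Cd200 encodes the ligand of the inhibitory receptor CD200R and is itself no receptor with an inhibitory tail, although it is usually listed with this group.

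Expression is given as FPKM, a fragment count divided by transcript length and library size, which allows levels of different genes to be set side by side. A difference is the mean log2(FPKM + 1) of dKO less that of WT, a scale that understates changes of genes at a few FPKM, and a gene was called when its limma p, adjusted over all rows tested, was under 0.05. The steps between the lowest FPKM values put the libraries at about 19400000 reads (WT_0) to 25400000 reads (dKO_1). At that depth the least covered value of a member, Havcr2 in WT_0, rests on about 111 reads. Transcripts of both targeted genes were less abundant in dKO: Tcf7 had 345 and 309 FPKM in WT against 247 and 249.6 in dKO, and Lef1 had 59.9 and 66.5 against 41.3 and 36 FPKM. Neither was called by limma (adjusted p = 0.158 and 0.113). Gene-level values also count exons outside a floxed part and RNA of any other cells in the sample. The extent of deletion was not tested. Foxp3 had 113 and 121 FPKM in WT and 133 and 144 in dKO, and the 9 Treg and T cell markers in the table summed to 2329 and 2299 FPKM in WT and 2453 and 2381 in dKO, with no marker at 0.

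The 2 WT libraries differed from each other more than the 2 dKO libraries did, and some of the coinhibitory genes took part in this strongly. The median gap between WT_0 and WT_1 was 0.33 on the log2 scale over the 10 members and 0.12 over all 11595 rows tested, while between dKO_0 and dKO_1 it was 0.08 and 0.09. In 9 of the 10 members the ratio of the higher to the lower library was larger within WT than within dKO. Cd160 counts among these, although its ratio was 1.11 in both groups. In Ctla4, Btla, Cd160 and Cd200 the ratio within WT was only 1.01 to 1.11. The share of all rows with a larger ratio within WT was not counted. Other gene groups also separated the WT libraries. The summed FPKM of 10 B cell markers was 131 in WT_0 and 48 in WT_1, and that of 6 neutrophil markers 296 and 71.2. In the same order it was 292 and 201 for 9 follicular T cell markers, and 157 and 109 for 10 proliferation genes. It was 385 and 280 for 5 plasma cell markers, and 571 and 687 for 13 monocyte and macrophage markers. Leaving out a WT library moved the difference by over 1.5 times in Pdcd1, Lag3, Tigit, Havcr2, Cd244 and Cd96. For these genes the differences without WT_0 and without WT_1 are given. In such a fit the spread comes from the dKO libraries, so its p-value leaves out the gap between WT_0 and WT_1.

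Over all 10 members, 4 had both dKO libraries above both WT libraries, 4 had both dKO libraries below both WT libraries and 2 overlapped. Of all rows tested, 27.8% had dKO above WT in this way and 23.4% below, so a lack of overlap was common. By limma 0 of 10 members were called, against 0.345% of all rows tested. At an unadjusted p under 0.05 there were 4 lower members (Cd160, Cd200, Btla and Pdcd1) and 0 higher, against 7.08% and 9.64% of all rows. The authors' deposited lists of changed genes held Lag3 as higher, a list with 0.76% of all rows, and Pdcd1 and Cd160 as lower, a list with 0.604% of all rows. The median difference was -0.20 over the members and 0.01 over all rows tested. In these bulk samples fewer cells of a type and less RNA per cell cannot be told apart.

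**Figure D1:**
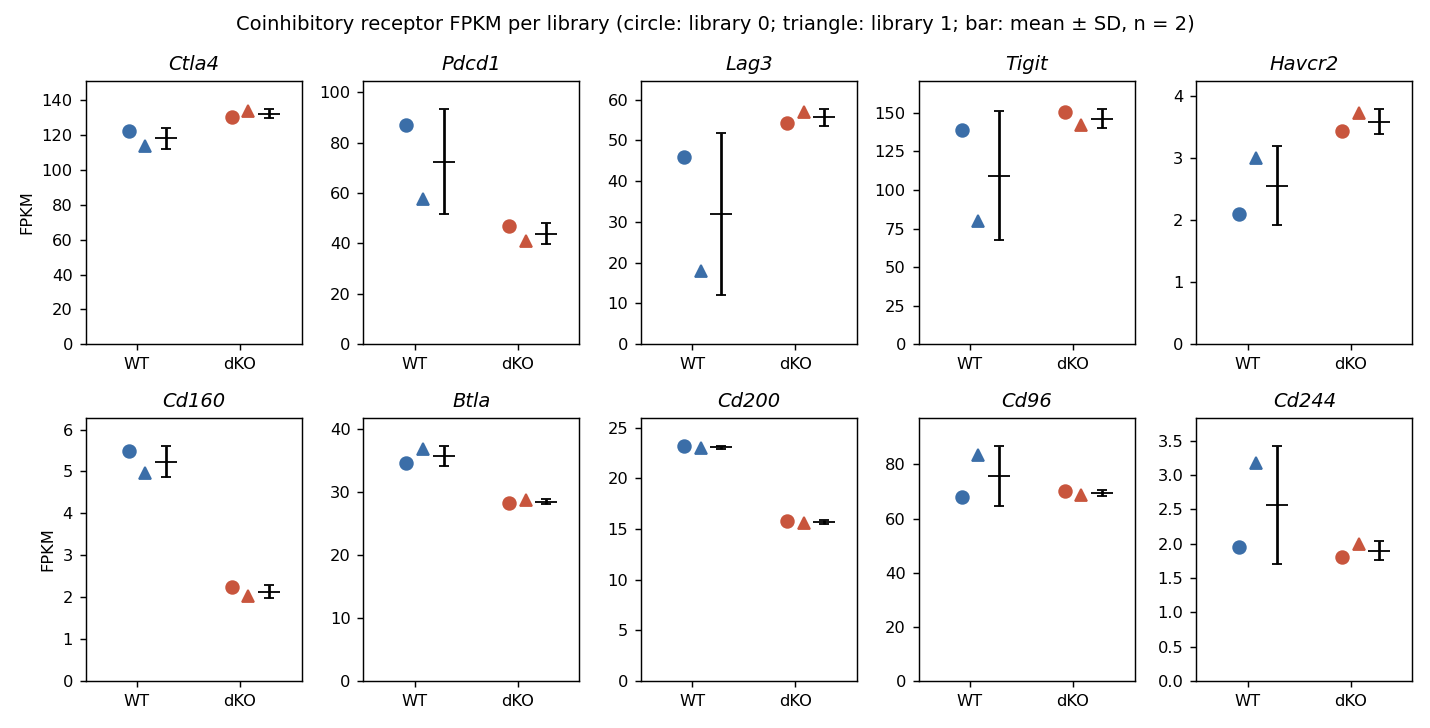
FPKM of the 10 genes in each library (vertical axes start at 0 and differ between panels), with the mean and SD of each group (n = 2). Cd160, Cd200 and Btla show tight groups that lie apart, while for Lag3, Tigit and Pdcd1 the 2 WT libraries lie far from each other.

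The lower members are described first, beginning with Cd160. Cd160 encodes an immunoglobulin-domain protein that binds HVEM, the product of Tnfrsf14, and is best known from NK cells and cytotoxic T cells. The gene (GRCm38 chromosome 3, 96798763 to 96829351, minus strand) had 5.5 FPKM (WT_0) and 4.97 (WT_1) in WT, and 2.24 (dKO_0) and 2.03 (dKO_1) in dKO. Both dKO libraries were below both WT libraries, and the gap between the groups was far larger than the gap within either. The WT mean was 5.24 ± 0.374 FPKM and the dKO mean 2.13 ± 0.151 (SD, n = 2 each), a WT level 2.45 times that of dKO. The log2 difference was -0.99 (SE 0.106, 95% interval -1.28 to -0.70), and its limma adjusted p of 0.0754 missed the threshold. It was called with small RNA rows left out (adjusted p = 0.0307) and with robust empirical Bayes (adjusted p = 0.0295), where 0.51% and 0.543% of all rows were called as lower, and its adjusted p ranged from 0.0295 to 0.502 over 12 alternatives. In the authors' deposited table its log2 fold change was -1.29 (q = 0.0134).

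Markers of some cells other than Treg cells had lower means in dKO, as Cd160 did. Of 9 tested NK cell markers, 8 had a lower mean in dKO, and limma called 0 and the authors' deposited lists held 0; at an unadjusted p under 0.05, 6 were lower and 1 was higher. Their summed level over the 10 markers in the table was 141 and 176 FPKM in WT and 128 and 113 in dKO, with no marker at 0 in every library. All 12 tested monocyte and macrophage markers also had a lower mean in dKO; limma called none of them, the authors' deposited list of lower genes held 1, 7 had an unadjusted p under 0.05, and the sums were 571 and 687 FPKM in WT and 494 and 487 in dKO. Of tested markers, 5 of 5 plasma cell, 4 of 4 dendritic cell and 5 of 6 neutrophil genes also had a lower mean in dKO. The 9 tested B cell markers all had a higher mean. Limma called none of the genes on these lists. The part of any of these cells in the Cd160 difference was not tested. Pdzk1, on the opposite strand, overlaps Cd160 and shares 68 exonic bases with it. Pdzk1 had 6.47, 2.94, 3.42 and 2.02 FPKM in WT_0, WT_1, dKO_0 and dKO_1, a different order from that of Cd160. The strand setting of the counting is not given in the sources used here, so reads of the shared bases cannot be assigned.

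Because the deleted factors bind DNA, promoters of the members were read from RefSeq windows (GRCm38.p6) that run from 250 bases before to 50 bases after a transcript start. The TCF/LEF core searched was CTTTG followed by 2 letters that are each A or T, on both strands; no other motif was searched. Of all 32851 windows, 16.9% held at least 1 match and 1.94% held 2 or more. Windows of 9 members were in the table, 10 windows in all, and 3 of them held a match. Cd160 has a window at each of 2 annotated starts, printed here because the gene had the largest difference among the lower members, and the Pdcd1 and Ctla4 windows are printed beside them as a lower gene with no match and a gene with a match after its start. Matches are in capitals and all sequences read 5′ to 3′ along the gene.
Cd160, inner start (chr3:96814472-96814771, minus strand): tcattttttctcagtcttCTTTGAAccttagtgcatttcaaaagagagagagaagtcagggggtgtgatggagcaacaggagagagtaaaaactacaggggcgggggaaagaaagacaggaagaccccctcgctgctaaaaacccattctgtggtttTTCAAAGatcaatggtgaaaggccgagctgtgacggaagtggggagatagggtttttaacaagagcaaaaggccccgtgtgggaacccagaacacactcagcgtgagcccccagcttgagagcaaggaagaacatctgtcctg
Cd160, outer start (chr3:96829302-96829601, minus strand): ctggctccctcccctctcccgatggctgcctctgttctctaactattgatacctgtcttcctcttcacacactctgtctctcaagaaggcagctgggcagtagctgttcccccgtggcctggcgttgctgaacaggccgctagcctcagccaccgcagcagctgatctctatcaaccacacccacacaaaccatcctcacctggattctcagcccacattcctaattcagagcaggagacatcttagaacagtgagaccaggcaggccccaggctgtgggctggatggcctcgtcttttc
Pdcd1 (chr1:94052504-94052803, minus strand): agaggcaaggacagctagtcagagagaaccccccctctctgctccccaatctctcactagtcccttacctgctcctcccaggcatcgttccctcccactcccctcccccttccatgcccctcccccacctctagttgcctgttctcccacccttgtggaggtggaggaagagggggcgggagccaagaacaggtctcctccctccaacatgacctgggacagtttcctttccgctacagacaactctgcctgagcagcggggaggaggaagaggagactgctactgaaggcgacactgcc
Ctla4 (chr1:60908775-60909074, plus strand): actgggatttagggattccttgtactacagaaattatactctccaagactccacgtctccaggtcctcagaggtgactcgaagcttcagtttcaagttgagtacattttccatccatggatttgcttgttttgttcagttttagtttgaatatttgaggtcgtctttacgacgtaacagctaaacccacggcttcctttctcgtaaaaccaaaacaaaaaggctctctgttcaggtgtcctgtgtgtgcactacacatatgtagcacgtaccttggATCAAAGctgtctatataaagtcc

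The inner Cd160 window held 2 matches, CTTTGAA in the direction of the gene and TTCAAAG, the reverse complement of the same letters, on the opposite strand. They begin 232 and 93 bases before the transcript start. The outer Cd160 window and the Pdcd1 window held none. The Ctla4 match (ATCAAAG, opposite strand) begins 26 bases after the start, and the match in the Cd96 window (CTTTGTT) begins 178 bases before its start. These matches are letters in a window and say nothing of binding, and gene-level FPKM does not separate the 2 Cd160 starts.

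Cd200 encodes the membrane ligand of CD200R, a receptor that restrains myeloid cells. Its values were 23.2 FPKM for WT_0 and 23 for WT_1, against 15.8 for dKO_0 and 15.6 for dKO_1, so that the libraries of a group were nearly equal and the groups lay apart. The means were 23.1 ± 0.135 and 15.7 ± 0.171 FPKM (SD, n = 2 each), and the log2 difference was -0.53 (SE 0.0582, 95% interval -0.69 to -0.37). The limma adjusted p was 0.0798, and it was 0.0338 with small RNA rows left out and 0.0301 with robust empirical Bayes, in a range of 0.0301 to 0.527 over 13 alternatives. The authors' deposited table gave a q of 0.0787. The difference lay between -0.55 and -0.52 under all 13 alternatives. Its receptor gene Cd200r1 had 14.7 and 13 FPKM in WT and 14.7 and 16 in dKO; both dKO libraries were higher, dKO_0 only just (log2 difference 0.14, limma adjusted p = 0.482). B cells also express Cd200. The 9 tested B cell markers all had a higher mean in dKO. Limma called none of them, 0 had an unadjusted p under 0.05, and the authors' deposited list of higher genes held 5. The summed level of the 10 B cell markers was 131 and 48 FPKM in WT and 129 and 196 in dKO. Their part in the Cd200 difference was not tested.

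Btla encodes an immunoglobulin-family receptor that binds HVEM, as Cd160 does, and carries inhibitory tyrosine motifs. It had 34.7 and 36.9 FPKM in WT_0 and WT_1, and 28.3 and 28.8 in dKO_0 and dKO_1. Both dKO libraries were lower, and the log2 difference was -0.32 (SE 0.0619, 95% interval -0.48 to -0.15; limma adjusted p = 0.155). The authors' deposited table gave a q of 0.482. The shared ligand gene Tnfrsf14 had 51 and 51.8 FPKM in WT and 44.7 and 51.8 in dKO, with overlapping groups. Tnfsf14, which encodes LIGHT, a further partner of HVEM, had 20.3 and 22.7 FPKM in WT and 14 and 11.7 in dKO. Its log2 difference was -0.71 (limma adjusted p = 0.125), and it was on the authors' deposited list of lower genes (q = 0.0154).

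Pdcd1 encodes PD-1, which binds PD-L1 and PD-L2 and recruits SHP-2. The gene (chromosome 1, 94038305 to 94052553, minus strand) stood at 87.1 FPKM in WT_0 and 57.7 in WT_1, and at 46.7 in dKO_0 and 40.9 in dKO_1. Both dKO libraries were below both WT libraries, but WT_1 was closer to dKO_0 than to WT_0. The means were 72.4 ± 20.8 and 43.8 ± 4.08 FPKM (SD, n = 2 each). The log2 difference was -0.69 (SE 0.215, 95% interval -1.27 to -0.10; limma adjusted p = 0.251). Without WT_1 it was -0.98 and called (adjusted p = 0.0357, with 0.753% of all rows called as lower), and without WT_0 it was -0.39 and not called (adjusted p = 0.139). Its adjusted p ranged from 0.0357 to 0.703 over 13 alternatives. Each of these fits left 1 WT library, which is assumed to vary as the dKO libraries do. In the authors' deposited table the log2 fold change was -0.73 (q = 0.00365).

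Pdcd1 is high in follicular T cells, whose markers were also higher in WT_0 than in the other libraries in 6 of 7 tested. Il1r2 had 23.4 FPKM in WT_0 and 8.23, 7.79 and 7.3 FPKM in WT_1, dKO_0 and dKO_1. Cxcr5 had 39.7 FPKM in WT_0 and 26.3, 23.7 and 28.7 in the same order. The summed level of the 9 follicular markers was 292 and 201 FPKM in WT and 235 and 241 in dKO, and limma called 0 of 7, with 1 lower at an unadjusted p under 0.05. The authors' deposited list of lower genes held 1 of them, Il1r2 (q = 0.00886). Of 6 tested neutrophil markers, 4 were also highest in WT_0, with sums of 296 and 71.2 FPKM in WT and 58.3 and 94.2 in dKO. Limma called none of these 6, and the authors' deposited list of lower genes held 3. The part of either marker list in the Pdcd1 difference was not tested. Of the PD-1 ligand genes, Cd274 had 23.6 and 23.2 FPKM in WT and 24.9 and 25.6 in dKO. Pdcd1lg2, which encodes PD-L2, had 7.12 and 7.62 FPKM in WT and 10.8 and 11.5 in dKO, with both dKO libraries higher (log2 difference 0.54, SE 0.0792, limma adjusted p = 0.118).

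**Figure D2:**
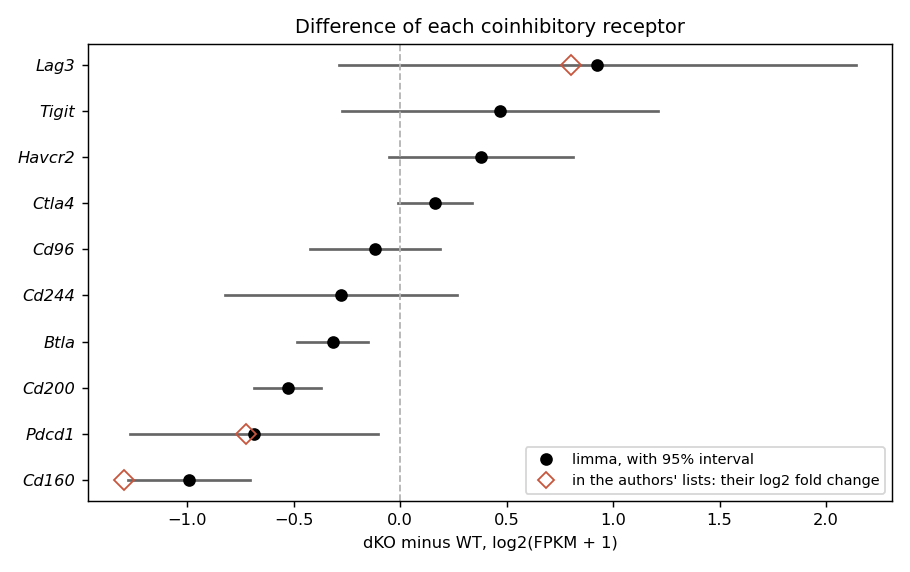
Differences (dKO minus WT, log2(FPKM + 1), horizontal axis) of the 10 genes with limma's 95% interval, and the log2 fold change of the authors' deposited table for the 3 genes on the authors' lists. The intervals of Cd160, Cd200, Btla and Pdcd1 lie below 0, and that of Lag3 is the widest, from -0.29 to 2.14.

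Among the members with a higher mean in dKO, Lag3 encodes a CD4-related receptor that binds MHC class II. The gene (chromosome 6, 124904361 to 124911705, minus strand) stood at 45.9 FPKM in WT_0 but 17.9 in WT_1, and at 54.2 in dKO_0 and 57.1 in dKO_1. WT_0 was much closer to the dKO libraries than to WT_1, in which Lag3 was 2.56 times lower than in WT_0. The means were 31.9 ± 19.8 and 55.6 ± 2.02 FPKM (SD, n = 2 each), and the log2 difference was 0.93 (SE 0.45, 95% interval -0.29 to 2.14; limma adjusted p = 0.385). Without WT_0 it was 1.58 and called (adjusted p = 0.00869, with 1.18% of all rows called as higher), and without WT_1 it was 0.27 and not called (adjusted p = 0.168). Its adjusted p ranged from 0.00869 to 0.769 over 13 alternatives. The Lag3 fits without WT_0 or WT_1 left 1 WT library, which is assumed to vary as the dKO libraries do. In the authors' deposited table the log2 fold change was 0.80, with a q of 0.00365. This is the smallest q in that table, and Pdcd1 and many other genes share it.

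Tigit encodes a receptor for PVR and competes for it with the costimulatory receptor CD226. The gene (chromosome 16, 43648867 to 43664146, minus strand) stood at 139 FPKM in WT_0 but 79.9 in WT_1, and at 151 in dKO_0 and 142 in dKO_1. Both dKO libraries were higher, but WT_0 nearly reached them. The log2 difference was 0.47 (SE 0.275, 95% interval -0.27 to 1.21; limma adjusted p = 0.458), 0.86 without WT_0 (adjusted p = 0.0303) and 0.08 without WT_1 (adjusted p = 0.649). Its adjusted p ranged from 0.0303 to 0.834 over 13 alternatives. The Tigit fits without WT_0 or WT_1 also left 1 WT library, with the same assumption. The authors' deposited table gave a q of 0.19. WT_1 was below WT_0 in Lag3, Tigit and Pdcd1, and also in Ctla4, Cd160 and Cd200. Of the 10 members, Lag3, Tigit and Ctla4 were lowest in WT_1, while Pdcd1 was lowest in dKO_1. All 10 proliferation genes were lowest in WT_1 too, and all 10 had a higher mean in dKO, with sums of 157 and 109 FPKM in WT and 230.2 and 253 in dKO. Of these 10, limma called 0; before adjustment 9 had a p under 0.05, and the authors' deposited list of higher genes held 9. Their part in the Lag3 and Tigit differences was not tested.

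Ctla4, whose product takes CD80 and CD86 from antigen-presenting cells, had the highest mean of the members in WT. The gene (chromosome 1, 60887000 to 60915832, plus strand) had 122 and 114 FPKM in WT_0 and WT_1, and 131 and 134 in dKO_0 and dKO_1. The groups did not overlap, but the difference was small, at 0.16 (SE 0.0647, 95% interval -0.01 to 0.34; limma adjusted p = 0.312). The interval leaves room for a dKO level up to 0.34 higher on the log2 scale. Its ligand genes were measured in the sorted cells as well. Cd86 had 15.3 and 20.4 FPKM in WT and 18.5 and 18.4 in dKO, and Cd80 had 1.98 and 2.18 in WT and 1.06 and 1.04 in dKO (difference -0.59, limma adjusted p = 0.161).

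Havcr2, which encodes TIM-3, a receptor also found on myeloid cells, had 2.11 and 3.01 FPKM in WT and 3.44 and 3.73 in dKO. Both dKO libraries were higher (log2 difference 0.38, SE 0.161, 95% interval -0.06 to 0.81; limma adjusted p = 0.339). The difference was 0.19 without WT_0 and 0.56 without WT_1, and neither was called (adjusted p = 0.43 and 0.151). Markers of monocytes and macrophages had a lower mean in dKO for 12 of 12 tested, and limma called none of them. Their part in the Havcr2 difference was not tested. Cd244 encodes 2B4, a receptor for CD48 on NK cells and some T cells and myeloid cells, and had 1.96 and 3.17 FPKM in WT and 1.8 and 2 in dKO. Its groups overlapped, and the difference was -0.28 (95% interval -0.82 to 0.27), -0.03 without WT_1 and -0.53 without WT_0 (adjusted p = 0.939 and 0.151). Cd96, which encodes a further receptor for PVR, had 68 and 83.6 FPKM in WT and 70.2 and 68.7 in dKO. Its groups overlapped too, and the difference was -0.12 (95% interval -0.42 to 0.19), 0.03 without WT_1 and -0.26 without WT_0. In Cd244 and Cd96, and in Btla, WT_1 was the highest of the 4 libraries. Ly9, on the opposite strand, overlaps the Cd244 gene without shared exonic bases.

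**Figure D3:**
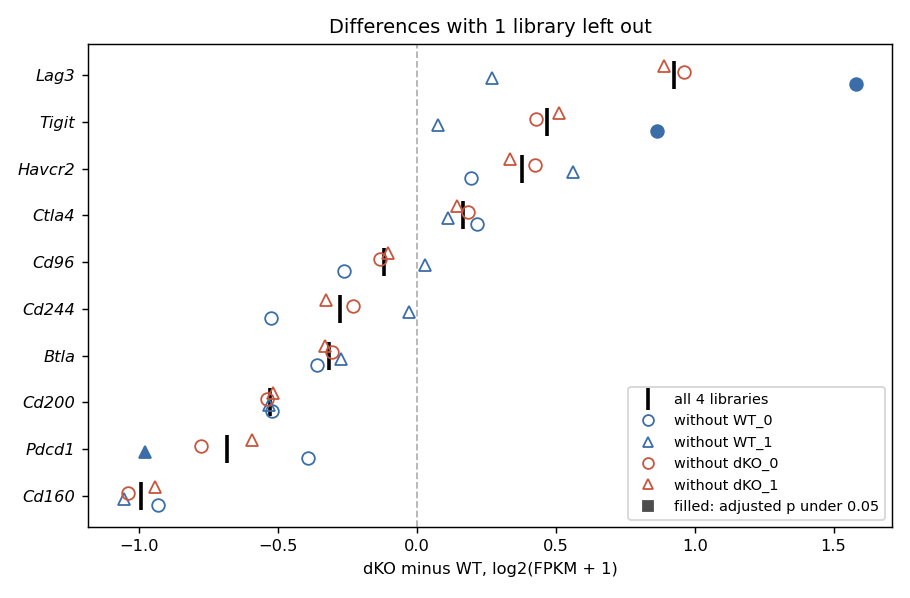
Differences (dKO minus WT, log2(FPKM + 1), horizontal axis) with all 4 libraries and with each library left out; filled symbols have a limma adjusted p under 0.05. Lag3 moves from 0.27 without WT_1 to 1.58 without WT_0, while Cd200 stays near -0.53.

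By level, the 10 genes fell into a high and a low set in both groups. In WT the order by mean FPKM was Ctla4 (118), Tigit (109), Cd96 (75.8), Pdcd1 (72.4), Btla (35.8), Lag3 (31.9), Cd200 (23.1), Cd160 (5.24), Cd244 (2.57) and Havcr2 (2.56). Most neighbours in that order had overlapping libraries. The exceptions were Pdcd1 above Btla, Cd200 above Cd160 and Cd160 above Cd244. In dKO the order was Tigit (146), Ctla4 (132), Cd96 (69.4), Lag3 (55.6), Pdcd1 (43.8), Btla (28.5), Cd200 (15.7), Havcr2 (3.59), Cd160 (2.13) and Cd244 (1.9), and no neighbours overlapped. Lag3 stood below Pdcd1 and Btla by mean in WT and above both in dKO, and Havcr2 passed Cd160. The summed level of the 10 genes was 529.7 FPKM for WT_0 and 424 for WT_1, against 504 for dKO_0 and 495 for dKO_1, so dKO lay between the WT libraries.

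Some members share a ligand with another receptor, and a ratio of FPKM within a library does not depend on how libraries are scaled. Ctla4 over Cd28, which both bind CD80 and CD86, was 1.97 and 1.83 in WT and 1.99 and 2.01 in dKO. Lag3 over Cd4, which both bind MHC class II, was 0.188 and 0.077 in WT and 0.247 and 0.266 in dKO. Both ratios were higher in both dKO libraries, the first by little. Tigit over Cd226 was 5.14 and 2.45 in WT and 4.73 and 4.58 in dKO, overlapping. Cd96 over Cd226 was 2.52 and 2.57 in WT and 2.21 and 2.22 in dKO, and Cd160 over Btla was 0.159 and 0.135 in WT and 0.0793 and 0.0704 in dKO, both lower in both dKO libraries. Cd226 itself had 27 and 32.6 FPKM in WT and 31.8 and 31 in dKO. With 2 libraries a group, an exact two-sided permutation test of such a ratio cannot go below p = 0.333, so these ratios are descriptions.

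**Figure D4:**
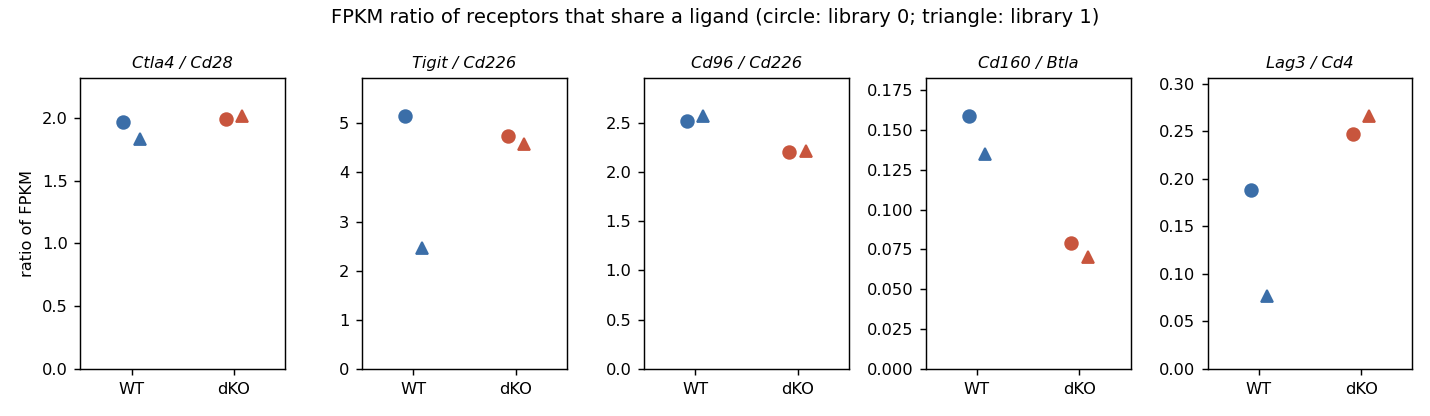
Ratio of FPKM within each library for 5 pairs of receptors that share a ligand (vertical axes start at 0 and differ between panels). The Cd160 over Btla ratio is 0.159 and 0.135 in WT and 0.0793 and 0.0704 in dKO.

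Genes around the receptors were read from lists of ligands, costimulatory receptors, other inhibitory receptors, tail signalling, trafficking and transcription factors. The counts of each list stand beside 9.64% of all rows tested that were higher and 7.08% that were lower at an unadjusted p under 0.05. Of 14 tested ligand and partner genes, limma called 0. Before adjustment 1 was higher (Pdcd1lg2) and 3 were lower at p under 0.05, and the median difference was -0.02. The 3 lower were Tnfsf14, Cd80 and the PVR gene Pvr (14.9 and 15.7 FPKM in WT, 13 and 11.6 in dKO). Fgl1, a ligand of LAG-3, was listed at 0 in all 4 libraries. Of 11 costimulatory receptor genes, limma called 0. Before adjustment 2 were higher and 0 lower at p under 0.05, and the median difference was 0.12. The 2 were Slamf1 (log2 difference 0.28, adjusted p = 0.176) and the adhesion receptor gene Cd2 (0.26, adjusted p = 0.207). Icos had 65.7 and 47.1 FPKM in WT and 72.8 and 73.3 in dKO (log2 difference 0.39, adjusted p = 0.346). Of these 11 genes, 8 were lowest in WT_1. So were 8 of 16 other inhibitory receptors, 7 of 15 tail signalling genes and 4 of 14 ligand and partner genes. The share of all rows lowest in WT_1 was not counted.

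Genes listed as inhibitory receptors outside the 10 had mostly positive differences, 13 of 16 tested. The share of positive differences over all rows tested was not counted. Of the 16, limma called 1 higher (Lilr4b) and 0 lower, and before adjustment 8 were higher and 1 lower at p under 0.05. Lilr4b, also named Gp49a, counts here by its place on the list, and whether its product inhibits was not examined. The median difference was 0.25 over the list and 0.01 over all rows tested. Lilr4b had 2.81 and 2.73 FPKM in WT and 8.1 and 9.19 in dKO (difference 1.35, SE 0.099, limma adjusted p = 0.0377). Without dKO_0 and without dKO_1, where 2 rows were called each, it was not called. Lilrb4a, its close paralog, had 12.8 and 10.6 FPKM in WT and 23.9 and 25.3 in dKO (log2 difference 1.02, adjusted p = 0.0724), and reads of near-identical copies could be split between them. Cd101, an immunoglobulin-family inhibitory protein, had 14 and 16.9 FPKM in WT and 28.8 and 29.9 in dKO (log2 difference 0.89, adjusted p = 0.0891). The IL-10 receptor gene Il10ra had 37 and 40.8 FPKM in WT and 64.2 and 66.1 in dKO (log2 difference 0.73, adjusted p = 0.0632). These 4 genes were on the authors' deposited list of higher genes. Cd72, also a B cell gene, had 23 and 20.4 FPKM in WT and 34 and 37.5 in dKO (adjusted p = 0.104). Cd22, also on this list, is among the B cell markers given above (log2 difference 0.56, limma adjusted p = 0.549). The part of B cells in these differences was not tested. The CD5-related receptor gene Cd6 had 213 and 214 FPKM in WT and 248 and 247 in dKO (adjusted p = 0.205). Klrc1, which encodes the NK cell receptor NKG2A, was the 1 lower gene, at 3.37 and 3.36 FPKM in WT and 2 and 1.9 in dKO (adjusted p = 0.144), beside the lower NK cell markers.

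**Figure D5:**
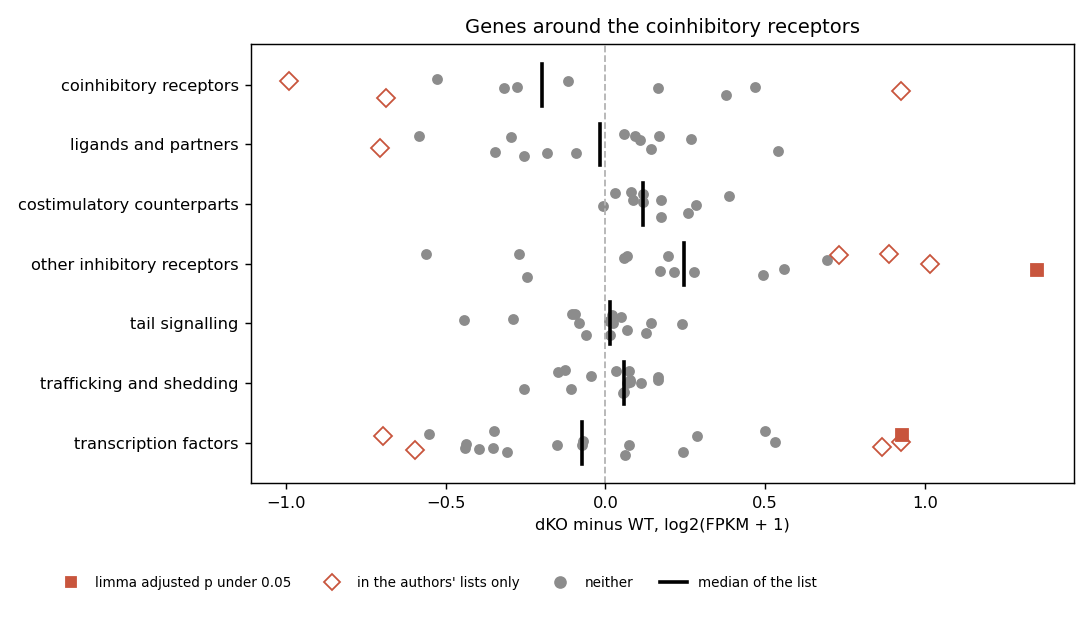
Differences (dKO minus WT, log2(FPKM + 1), horizontal axis) of the tested genes of each list, 1 symbol a gene, with the list's median as a bar. The coinhibitory genes reach from -0.99 (Cd160) to 0.93 (Lag3), and tail signalling and trafficking genes lie near 0, with medians of 0.02 and 0.06.

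Genes of the machinery behind the receptors had median differences near 0. Of 15 tail signalling genes, limma called 0, and 2 were higher and 2 lower at p under 0.05 before adjustment. The SHP-1 gene Ptpn6 had a difference of 0.02 and the SHP-2 gene Ptpn11 also 0.02. Inpp5d, which encodes the lipid phosphatase SHIP-1, had 46.3 and 46.8 FPKM in WT and 53.7 and 56.7 in dKO (log2 difference 0.24, adjusted p = 0.186). Pik3r1, a regulatory subunit of PI3 kinase, had a difference of -0.29, and Sh2d1b1, which encodes the 2B4 adaptor EAT-2, one of -0.44 (adjusted p = 0.247 and 0.269). Of 15 trafficking and shedding genes, limma called 0, and 1 was higher and 0 lower at p under 0.05 before adjustment. The 1 was Ap1m1, a subunit of a clathrin adaptor (log2 difference 0.17, adjusted p = 0.269). Lrba and Def6, which help CTLA-4 return to the cell surface, had differences of -0.11 and 0.11, and Rab11fip5 one of -0.25 (adjusted p = 0.43). The authors' deposited lists held 0 of the costimulatory, tail signalling and trafficking genes.

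Transcription factor genes known to bear on coinhibitory receptors had differences in both directions. Of 21 tested, a list that includes Tcf7 and Lef1, limma called 1 higher (Id2) and 0 lower. Before adjustment 7 were higher and 7 lower at p under 0.05, with a median difference of -0.07 over the list. The 7 higher were Id2, Tbx21, Eomes, Maf, Prdm1, Foxp3 and Irf4. The 7 lower were Bach2, Lef1, Tcf7, Tox, Bcl6, Nr4a3 and Nr4a1. Tox had a log2 difference of -0.31, Nr4a3 of -0.55 and Nr4a1 of -0.44 (limma adjusted p = 0.168, 0.18 and 0.264). Id2, an inhibitor of E protein factors, had 51.6 and 53.6 FPKM in WT and 103 and 98.6 in dKO (difference 0.93, SE 0.0594, limma adjusted p = 0.0272). Without dKO_0 and without dKO_1 it was not called. Prdm1, which encodes Blimp1, had 8.3 FPKM in WT_0, 4.59 in WT_1 and 12.6 and 12.8 in dKO (adjusted p = 0.222), with WT_1 lowest as in Lag3 and Tigit. Maf, which with Blimp1 drives coinhibitory genes in mouse T cells, had 94.6 and 79.3 FPKM in WT and 118 and 127 in dKO (adjusted p = 0.163). The authors' deposited comparison gave Maf a q of 0.0341, although it was on neither of their lists. Tbx21, which encodes T-bet, had 11.5 and 10.3 FPKM in WT and 19.2 and 22.2 in dKO (adjusted p = 0.0891), and the related Eomes had 3.48 and 3.08 in WT and 5.48 and 4.89 in dKO (adjusted p = 0.158). The repressor gene Bach2 had 14.4 and 15 FPKM in WT and 9.2 and 9.55 in dKO (adjusted p = 0.0884). Prdm1, Tbx21 and Id2 were on the authors' deposited list of higher genes, and Bach2 and Lef1 on that of lower genes.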

How the data were processed

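Treg RNA was sequenced in 4 libraries, 2 per group by their titles. FastQC, TopHat2 2.1.0, Cuffdiff 2.2.1 and mm10 are named, per the submitters' processing notes; annotation and strand setting were not given in the sources used here. Tables deposited by the authors hold FPKM per library and group, log2 fold changes, p-values and q-values, and lists of changed genes. Column suffixes (0 and 1) match no titled replicate number, so columns were tied to groups only.

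FPKM are not counts, so log2(FPKM + 1) was fitted with limma 3.58.1 in R 4.3.3 (intensity trend, two-sided, unpaired, Benjamini-Hochberg over all rows). A row was tested when 2 or more libraries reached an FPKM of 1, 11595 of 24346, including all 10 members. The fit had 2 residual and 2.31 prior degrees of freedom and was tested on simulated data. Depth was estimated from the FPKM worth of 1 read; FPKM precision at the members' levels is limited by the spread of 2 libraries. Gene positions and overlaps come from GENCODE M21 (GRCm38, the mm10 assembly) and promoters from RefSeq. Older symbols were matched through RefSeq synonyms. Protein sequences were not analysed here.

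The members and lists were chosen with earlier results of these data known. Named beside the 10 members are Tcf7, Lef1 and Foxp3. Per list, genes called by limma or on the authors' lists and up to 3 further genes of smallest p are named. All transcription factor genes with an unadjusted p under 0.05 are named too. Other genes named as ligands, partners, phosphatases, trafficking factors or markers were chosen for their role. Alternatives changed the pseudocount (0.1, 0.5), the filter (none, or an FPKM of 5), scaling, small RNA rows (224 of the rows tested), the trend, robust fitting and each library in turn.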

Additional observations from a re-analysis of the deposited data

How the results depend on the processing

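Of 127 values of the 10 genes under alternatives, 119 kept their direction and side of the threshold, 7 became calls and 1 changed sign, Cd96, whose difference ranged from -0.26 to 0.029 with 1 library left out. The number of genes called over all rows, 40, was 16 with no filter, 186 with small RNA rows left out, 185 with robust empirical Bayes and 2 to 217 with 1 library left out. Of the 10 members, 0 called in the reported fit, 2 were called with small RNA rows left out and 2 with robust empirical Bayes (Cd160 and Cd200 in both), and 0 to 2 with 1 library left out (Lag3 and Tigit without WT_0, Pdcd1 without WT_1). Prior degrees of freedom were 2.31 in the reported fit and 3.8 and 3.77 in these 2 fits. Ligands and partners had 1 call with small RNA rows left out and 1 with robust fitting. Costimulatory genes had 0 to 1 with 1 library left out. Other inhibitory receptors had 0 with no filter, 5 with small RNA rows left out, 5 with robust fitting and 0 to 5 with 1 library left out. Transcription factors had 0 with no filter, 0 with no trend, 4 with small RNA rows left out, 4 with robust fitting and 0 to 3 with 1 library left out. Cd160, Cd244 and Havcr2 did not pass the filter of an FPKM of 5. Except for the numbers of rows and degrees of freedom given, the cause was not tested. No paired analysis was possible because the library columns carry none of the replicate numbers of the titles. An alternative of the replicate number as a block was therefore not run.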

Other observations

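Tigit, Btla, Cd200 and Cd96 lie within 2.47 megabases of mouse chromosome 16 (43648867 to 46120251, GRCm38), and Ctla4, Pdcd1 and Cd244 lie on chromosome 1. The 4 members on chromosome 16 did not share a direction: Btla and Cd200 were lower in both dKO libraries, Tigit was higher in both and Cd96 overlapped. Over the 17 rows tested in that stretch, these 4 included, 8 had a positive and 9 a negative difference, with a median of -0.00362 on the log2 scale.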
